A study of Mus musculus with 18 samples.

Results

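The granzymes and perforin, the killing proteins of cytotoxic lymphocytes, were followed through 10 genes: Gzma, Gzmb, Gzmc, Gzmd, Gzme, Gzmf, Gzmg, Gzmk, Gzmm and Prf1. They were chosen by symbol and make up 10 of the 26538 genes in the deposited expression table. RNA was sequenced from 18 mouse tumours, each taken from an animal after ablation of another tumour. The labels call these 18 tumours untreated, which is read here as not ablated themselves. There were 6 groups of 3 tumours: cryoablation, which destroys tissue by freezing, radiofrequency ablation, which destroys it by heating, and cryo-thermal therapy, which joins freezing and heating, each alone or combined with anti-PD-1 therapy, an antibody against an inhibitory receptor of T cells. All 18 tumours came from animals with an ablated tumour, and no group without ablation was used. The sources used here do not give the mouse strain, the tumour line, the age or when the tumours were taken. The labels name the tissue only as tumour, so no defining marker of the tumour cells could be checked. Whether the tumours of 1 group are from different mice is not stated, and p-values therefore reflect only how far these samples spread, which may be technical.

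Granzymes are serine proteases that natural killer cells and activated CD8 T cells store in secretory granules, bound to the proteoglycan serglycin and made active by cathepsin C. When the granule is released onto a target cell, perforin forms pores through which granzymes enter and cleave proteins that control cell death. Granzyme B cleaves after aspartate, like the caspases, granzymes A and K cleave after basic residues, and granzyme M after methionine or leucine. Mice carry a further series, Gzmc to Gzmg, beside Gzmb, which is known from strongly activated lymphocytes.

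In the RefSeq annotation of assembly GRCm38.p6, the order of the genes on chromosome 14 was Ctsg, Gzme, Gzmd, Gzmg, Gzmn, Gzmf, Gzmc and Gzmb. Gzma and Gzmk lie on chromosome 13, and Gzmm and Prf1 on chromosome 10. The sources used here do not name the authors' genome build, so no coordinate of their features is printed. Promoters, from 250 bases before to 50 bases after the annotated start, were found in RefSeq (GRCm38.p6) for all 10 genes. The 4 printed here are shown because, across the tumours, Gzmb was less like Gzmd to Gzmg than those were like each other. Gzmc was similarly close to Gzmb and to Gzmd to Gzmg. A further reason is that near-identical copies limit how well the reads of these genes can be told apart. All 4 are on the minus strand and are written 5′ to 3′, at chr14:56262285-56262584 for Gzmb, chr14:56234608-56234907 for Gzmc, chr14:56132544-56132843 for Gzmd and chr14:56159530-56159829 for Gzmg. Capitals mark matches on either strand to TGTGGTT, a RUNX motif, to TGANTCA, an AP-1 motif, and to TGACGTC, the core of a CRE. No match of the RUNX, AP-1 and CRE letters overlapped another of these motifs.
Gzmb: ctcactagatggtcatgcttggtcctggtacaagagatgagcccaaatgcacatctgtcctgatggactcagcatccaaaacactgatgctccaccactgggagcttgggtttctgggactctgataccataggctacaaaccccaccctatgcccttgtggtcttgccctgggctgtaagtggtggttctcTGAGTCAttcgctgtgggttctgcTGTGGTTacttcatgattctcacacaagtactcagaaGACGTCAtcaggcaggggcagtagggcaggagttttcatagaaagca
Gzmc: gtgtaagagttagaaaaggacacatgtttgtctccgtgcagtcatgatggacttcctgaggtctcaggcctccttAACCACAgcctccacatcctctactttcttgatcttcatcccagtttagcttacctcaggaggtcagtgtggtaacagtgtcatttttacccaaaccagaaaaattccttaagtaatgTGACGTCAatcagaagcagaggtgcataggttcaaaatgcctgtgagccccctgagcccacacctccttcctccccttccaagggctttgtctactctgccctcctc
Gzmd: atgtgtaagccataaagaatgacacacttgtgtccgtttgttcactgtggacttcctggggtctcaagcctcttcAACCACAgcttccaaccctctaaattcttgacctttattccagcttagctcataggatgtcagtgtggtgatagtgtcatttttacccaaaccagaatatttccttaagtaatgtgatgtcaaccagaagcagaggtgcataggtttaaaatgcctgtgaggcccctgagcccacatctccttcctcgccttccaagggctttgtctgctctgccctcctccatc
Gzmg: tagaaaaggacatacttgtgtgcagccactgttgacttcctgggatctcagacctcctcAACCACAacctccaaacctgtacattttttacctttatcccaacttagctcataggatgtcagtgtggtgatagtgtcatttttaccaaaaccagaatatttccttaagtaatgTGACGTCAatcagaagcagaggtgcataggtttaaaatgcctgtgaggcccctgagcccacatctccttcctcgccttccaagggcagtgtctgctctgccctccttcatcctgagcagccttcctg
The RUNX letters were found in the promoters of 7 of the 10 genes, Gzma to Gzmg, and in 5.27% of 32851 mouse promoters of the same length. In Gzmc and Gzmd the match began at the same position, -175 from the annotated start, and in Gzmb at -34. Of the members, Gzmb alone held the AP-1 letters, which 7.81% of all promoters hold. The CRE core was found in Gzmb, Gzmc, Gzmf and Gzmg, and in 3.21% of all promoters. A TATAAA box was found in none of the 10 genes and in 13.6% of all promoters. These matches describe the letters in the windows and say nothing of the factors.

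The promoters of Gzmd and Gzme were 94.0% identical over their aligned bases, those of Gzmd and Gzmg 90.1%, and those of Gzmb and Gzmc 69.9%. Reference transcripts showed the same order, with 94.8% between Gzmd and Gzme and 77.8% between Gzmb and Gzmc. For scale, the promoters of Gzmb and Prf1, which lie on different chromosomes, were 67.6% identical over their aligned bases. The 69.9% of Gzmb and Gzmc is little above that. Of all windows of 50 bases in the transcript, 21.5% of those in Gzmd, 19.1% in Gzme, 15.2% in Gzmg, 7.36% in Gzmf and 4.14% in Gzmc also occurred in another member. The other 5 members shared no such window. Of windows of 100 bases, 0.231% of those in Gzmd and 0.247% in Gzmg occurred in another member, and none of those in the remaining members. The sources used here give neither the read length nor how reads that match several genes were counted. The split of signal among Gzmd, Gzme, Gzmf and Gzmg is therefore uncertain. A gene's own level is better separated for Gzma, Gzmb, Gzmk, Gzmm and Prf1.

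Levels are in FPKM, fragments per unit of transcript length and of mapped fragments, and are listed for replicates 1, 2 and 3 of a group in that order. The sum of FPKM per tumour ran from 408042 to 442383, and the relative depth estimated from low values from 0.986 to 1.02, so depth was nearly equal. No sum of fragments is in the table, so no counting interval is given. In earlier results of these data 3 tumours held much hair follicle RNA, namely replicates 1 and 2 of cryoablation plus anti-PD-1 and replicate 1 of cryo-thermal therapy plus anti-PD-1. Leaving out all 3 keeps only replicate 3 of cryoablation plus anti-PD-1, so for that setting an effect size alone is given. Differences are limma log2 fold changes of log2(FPKM + 1), a scale that understates the change of genes with low FPKM. They were tested over the 12587 genes with a mean of at least 0.5 FPKM, and called at a Benjamini-Hochberg adjusted p under 0.05. In total 9 of the 10 members passed this filter, and Gzmk did not. In bulk RNA of this kind, fewer cells of a type and less RNA per cell cannot be told apart.

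Prf1 (NCBI gene 18646) encodes perforin, the pore-forming protein. Prf1 after cryoablation was 1.70, 1.45 and 2.92 FPKM, and 3.91, 0.903 and 1.25 FPKM with anti-PD-1 added. Prf1 after radiofrequency ablation was 5.30, 5.53 and 3.92 FPKM, and 3.87, 3.15 and 12.3 FPKM with anti-PD-1 added. Prf1 after cryo-thermal therapy was 6.66, 4.23 and 4.58 FPKM, and 7.30, 7.49 and 7.74 FPKM with anti-PD-1 added. Levels after cryo-thermal plus anti-PD-1 lay in a narrow band, with a mean of 7.51 ± 0.221 FPKM (SD, n = 3). They were above all tumours of the other groups except replicate 3 of radiofrequency plus anti-PD-1, which was the highest of the 18. The lowest was replicate 2 of cryoablation plus anti-PD-1.

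Gzmb (NCBI gene 14939) encodes granzyme B, which activates caspases in target cells. Gzmb after cryoablation was 3.35, 3.03 and 6.16 FPKM, and 9.39, 2.27 and 2.59 FPKM with anti-PD-1 added. Gzmb after radiofrequency ablation was 8.99, 14.4 and 6.21 FPKM, and 8.96, 5.86 and 24.4 FPKM with anti-PD-1 added. Gzmb after cryo-thermal therapy was 19.0, 11.3 and 12.6 FPKM, and 23.2, 23.4 and 24.4 FPKM with anti-PD-1 added. The 3 tumours after cryo-thermal plus anti-PD-1 had a mean of 23.7 ± 0.618 FPKM (SD, n = 3). All of them were above every other tumour except replicate 3 of radiofrequency plus anti-PD-1. In order of group means, cryo-thermal plus anti-PD-1 was followed by cryo-thermal at 14.3 ± 4.10, radiofrequency plus anti-PD-1 at 13.1 ± 9.92 and radiofrequency at 9.88 ± 4.18 FPKM. Cryoablation plus anti-PD-1 at 4.75 ± 4.02 and cryoablation at 4.18 ± 1.72 FPKM were lowest. Neighbours in this order overlapped, apart from the highest group and cryo-thermal therapy alone, whose values did not overlap.

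Gzma (NCBI gene 14938) encodes granzyme A, an abundant tryptase of NK cells and CD8 T cells. Gzma after cryoablation was 8.92, 0.813 and 5.81 FPKM, and 3.00, 0.300 and 1.15 FPKM with anti-PD-1 added. Gzma after radiofrequency ablation was 3.12, 3.81 and 1.75 FPKM, and 1.76, 1.43 and 3.57 FPKM with anti-PD-1 added. Gzma after cryo-thermal therapy was 9.97, 2.77 and 2.56 FPKM, and 11.9, 9.49 and 8.17 FPKM with anti-PD-1 added. Its order of groups differed from that of Gzmb, since cryoablation alone held the second highest mean, 5.18 ± 4.09 FPKM (SD, n = 3). That mean came from replicates 1 and 3, while replicate 2 was among the lowest of the 18 tumours. Cryo-thermal therapy plus anti-PD-1 was highest at 9.85 ± 1.88 FPKM, and overlapped with cryoablation and cryo-thermal therapy but with none of the other 3 groups.

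Gzmk (NCBI gene 14945) encodes granzyme K, known from memory CD8 T cells. Gzmk after cryoablation was 0, 0.168 and 0 FPKM, and 0.766, 0.120 and 0.0940 FPKM with anti-PD-1 added. Gzmk after radiofrequency ablation was 0.165, 0.0958 and 0.0237 FPKM, and 0.238, 0 and 0.0718 FPKM with anti-PD-1 added. Gzmk after cryo-thermal therapy was 0.863, 1.62 and 0.0950 FPKM, and 2.12, 1.31 and 0.767 FPKM with anti-PD-1 added. The 5 highest values came from the cryo-thermal groups, and 0.766 FPKM in replicate 1 of cryoablation plus anti-PD-1 came next. Gzmk was listed at 0 in 3 tumours, and its mean over all tumours was 0.473 FPKM, below the filter.

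Gzmm (NCBI gene 16904) encodes granzyme M, found mainly in NK cells. Gzmm after cryoablation was 0.603, 1.37 and 0.735 FPKM, and 1.20, 0.575 and 0.670 FPKM with anti-PD-1 added. Gzmm after radiofrequency ablation was 1.08, 0.845 and 1.12 FPKM, and 0.608, 1.42 and 1.54 FPKM with anti-PD-1 added. Gzmm after cryo-thermal therapy was 0.701, 0.776 and 0.855 FPKM, and 0.582, 0.744 and 1.28 FPKM with anti-PD-1 added. The 6 groups overlapped, with means from 0.777 ± 0.0771 FPKM after cryo-thermal therapy to 1.19 ± 0.508 FPKM after radiofrequency plus anti-PD-1 (SD, n = 3 each).

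Gzmc (NCBI gene 14940) is the neighbour of Gzmb and the first of the mouse series. Gzmc after cryoablation was 7.26, 9.22 and 13.4 FPKM, and 13.5, 5.56 and 9.60 FPKM with anti-PD-1 added. Gzmc after radiofrequency ablation was 22.5, 27.0 and 23.6 FPKM, and 25.7, 16.8 and 56.3 FPKM with anti-PD-1 added. Gzmc after cryo-thermal therapy was 18.1, 22.2 and 26.7 FPKM, and 27.7, 27.1 and 28.6 FPKM with anti-PD-1 added. The values after cryoablation, with or without the antibody, stayed at or below 13.5 FPKM, and all 12 tumours of the other 4 groups were above them. Within those 12, cryo-thermal plus anti-PD-1 lay above cryo-thermal therapy and radiofrequency ablation without overlap, and the other pairs of groups overlapped.

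Gzmd (NCBI gene 14941) and Gzme (NCBI gene 14942), which are the closest pair in sequence, differed in level but not in order. Gzmd after cryoablation was 14.2, 10.5 and 23.0 FPKM, and 20.4, 5.02 and 11.4 FPKM with anti-PD-1 added. Gzmd after radiofrequency ablation was 46.3, 26.0 and 31.2 FPKM, and 31.4, 27.3 and 107 FPKM with anti-PD-1 added. Gzmd after cryo-thermal therapy was 20.7, 23.1 and 24.8 FPKM, and 33.4, 22.4 and 20.1 FPKM with anti-PD-1 added. Replicate 3 of radiofrequency plus anti-PD-1 stood far above the other 17. Gzme after cryoablation was 5.52, 4.60 and 7.41 FPKM, and 7.22, 1.00 and 4.27 FPKM with anti-PD-1 added. Gzme after radiofrequency ablation was 14.7, 8.83 and 8.33 FPKM, and 9.12, 7.76 and 33.6 FPKM with anti-PD-1 added. Gzme after cryo-thermal therapy was 9.97, 8.83 and 8.35 FPKM, and 10.4, 8.97 and 8.25 FPKM with anti-PD-1 added. For both genes the means were ordered from radiofrequency plus anti-PD-1 over radiofrequency, cryo-thermal plus anti-PD-1, cryo-thermal and cryoablation to cryoablation plus anti-PD-1.

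Gzmf (NCBI gene 14943) had the highest mean of the members in each of the 6 groups. Gzmf after cryoablation was 22.1, 15.9 and 36.0 FPKM, and 24.2, 7.98 and 17.1 FPKM with anti-PD-1 added. Gzmf after radiofrequency ablation was 51.9, 36.9 and 44.8 FPKM, and 46.2, 33.4 and 125 FPKM with anti-PD-1 added. Gzmf after cryo-thermal therapy was 28.1, 25.0 and 25.7 FPKM, and 54.2, 41.7 and 38.0 FPKM with anti-PD-1 added. The cryo-thermal tumours without antibody lay between 25.0 and 28.1 FPKM, below all 3 radiofrequency tumours. Gzmg after cryoablation was 12.8, 11.5 and 28.1 FPKM, and 21.8, 4.42 and 11.8 FPKM with anti-PD-1 added. Gzmg after radiofrequency ablation was 47.6, 29.4 and 49.2 FPKM, and 33.0, 32.2 and 123 FPKM with anti-PD-1 added. Gzmg after cryo-thermal therapy was 20.8, 21.7 and 26.3 FPKM, and 34.6, 25.0 and 17.4 FPKM with anti-PD-1 added. For Gzmg (NCBI gene 14944) too, the 3 cryo-thermal tumours lay below the 3 radiofrequency tumours. Replicate 3 of radiofrequency plus anti-PD-1 was again the highest for both genes.

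**Figure D1:**
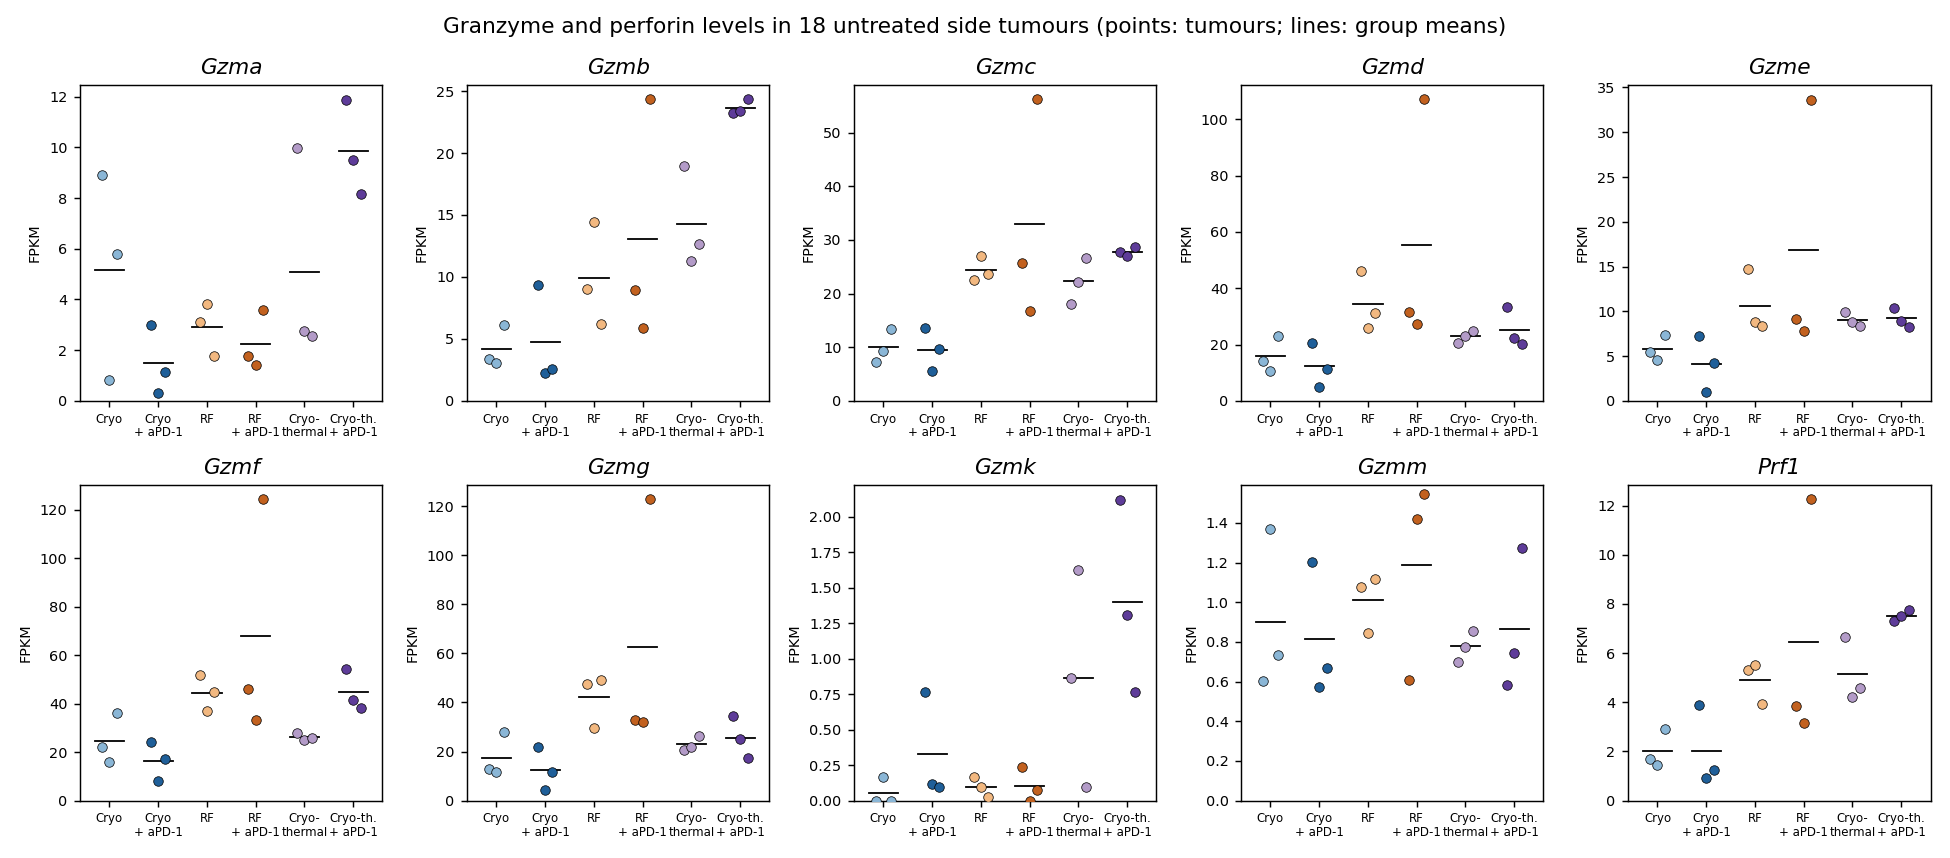
FPKM (y axis, linear, from 0) of the 10 genes in each of the 18 tumours by group, with points for tumours and lines for group means. Gzmb, Prf1 and Gzma were high in all 3 tumours of cryo-thermal therapy plus anti-PD-1. Replicate 3 of radiofrequency plus anti-PD-1 was the highest tumour for every member except Gzma and Gzmk.

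Over the 6 groups together, 4 of the 9 tested members passed limma's F test of any difference, at adjusted p-values of 0.012 for Gzmc, 0.016 for Gzmb, 0.027 for Prf1 and 0.031 for Gzmf. In comparison, 18.0% of all genes tested passed it. Gzmg at 0.051 and Gzmd at 0.054 lay just over the threshold, and Gzma had 0.083, Gzme 0.11 and Gzmm 0.762. Only Gzmb and Gzmc passed without replicate 1 of cryoablation, without replicate 2 or 3 of cryoablation plus anti-PD-1, and without replicate 2 or 3 of cryo-thermal therapy plus anti-PD-1, so the count fell to 2 each time. Without replicate 1 of cryoablation plus anti-PD-1 it was 7.

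The first comparison asks how cryo-thermal therapy differed from freezing alone. Gzmb rose by 1.58 ± 0.47 (SE) on the log2 scale after cryo-thermal therapy against cryoablation (adjusted p = 0.035), and Gzmc rose by 1.11 ± 0.34 (adjusted p = 0.041). These 2 of the 9 tested members were called higher, and 8.01% of all genes tested were. Prf1 had a difference of 1.04 ± 0.38 with an adjusted p of 0.078, and of 0.033 with only these 2 groups in the fit, and its 3 cryo-thermal tumours did not overlap with the 3 cryoablation tumours. Altogether 4 of the 10 members did not overlap and were higher, Gzmb, Gzmc, Gzme and Prf1, beside 17.7% of all genes. Gzmd (0.56), Gzme (0.57), Gzmf (0.16), Gzmg (0.47), Gzma (0.09) and Gzmm (-0.08) did not pass. The median difference over the 9 members was 0.56, beside -0.01 over all genes. With fewer tumours the calls were lost in part: Gzmb had an adjusted p of 0.118 without replicate 1 and 0.094 without replicate 2 of cryoablation, and of 0.144 without replicate 1 and 0.070 without replicate 2 of cryo-thermal therapy. Gzmc passed only without replicate 3 of cryoablation (0.047), and had 0.162 without replicate 1 and 0.089 without replicate 2 of cryoablation and 0.081, 0.108 and 0.086 without replicates 1, 2 and 3 of cryo-thermal therapy.

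The genes that load and process the granule moved in this comparison as well. Of 10 genes of granule processing and contents, 5 were higher and 0 lower: Nkg7, a granule membrane protein (2.10), Cst7, which encodes the cathepsin inhibitor cystatin F (1.37), Ctsc, the activator of granzymes (1.36), Ctsw (1.34) and Calr, the chaperone calreticulin (0.52). The median of the 10 was 0.47, beside -0.01 over all genes. Among 8 genes of granule exocytosis, Unc13d, the priming factor Munc13-4, was the single gene that rose (0.95). Among 5 serpins of the granzyme inhibitor list, Serpinb6b rose (0.53). Of 8 genes for substrates and death effectors Bid rose (0.35), and of 2 death ligands tested Tnfsf10, the ligand TRAIL, rose (0.86). Stat4 (0.60) and Runx3 (0.49) were higher among 9 transcription factors of cytotoxic cells. The cytokines and receptors that induce granzymes had 7 of 10 members higher, led by Il2rb, a shared receptor chain for interleukins 2 and 15 (1.40), Il21r (1.06), Ifng (1.04) and Il12rb1 (1.04).

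Markers of T cells, CD8 T cells and NK cells moved with these results. All 9 tested T cell genes rose, and the FPKM summed over the list ran from 2.97 to 4.25 after cryoablation and from 12.3 to 40.5 after cryo-thermal therapy. Both CD8 genes rose, Cd8a by 1.83 and Cd8b1 by 1.63, with list sums of 0.274 to 0.385 FPKM and 3.49 to 8.89 FPKM. NK cell genes rose in 5 of 7 cases, led by Xcl1 (1.81) and Klrd1 (1.52), with list sums of 4.83 to 5.91 FPKM and 14.0 to 27.0 FPKM. All 5 erythroid genes tested and 3 of 4 neutrophil genes fell, beside 6.96% of all genes, with erythroid sums of 558 to 772 FPKM after cryoablation and 23.6 to 210 FPKM after cryo-thermal therapy. Of 5 plasmacytoid dendritic cell genes tested, 2 rose and 1 fell, with a median difference of -0.09. Of the mast cell markers 0 of 6 were called, and their sums overlapped at 3.28 to 8.68 FPKM and 5.25 to 13.5 FPKM. No T cell, CD8, NK cell or mast cell marker in the table was at 0 in all tumours of either group. The part of these cells in the granzyme differences was not tested.

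With anti-PD-1 in both groups, 4 of the 9 tested members were higher after cryo-thermal therapy than after cryoablation, beside 3.24% of all genes. Gzmb rose by 2.31 ± 0.47 (SE; adjusted p = 0.022), Gzma by 2.26 ± 0.57 (adjusted p = 0.040), Prf1 by 1.63 ± 0.38 (adjusted p = 0.032) and Gzmc by 1.52 ± 0.34 (adjusted p = 0.030). Gzmf had a difference of 1.50 ± 0.42 with an adjusted p of 0.058. The values for Gzme (1.20), Gzmd (1.14), Gzmg (1.14) and Gzmm (0.04) did not pass. In 7 of the 10 members the groups did not overlap and the cryo-thermal tumours were higher, namely Gzma, Gzmb, Gzmc, Gzme, Gzmf, Gzmk and Prf1, beside 15.5% of all genes. The median over the 9 members was 1.50, beside 0.01 over all genes. Without replicate 2 of cryoablation plus anti-PD-1, the lowest tumour for most members, 0 members passed and Gzmb had an adjusted p of 0.113. The count was also 0 without replicate 3 of cryoablation plus anti-PD-1 (Gzmb 0.114) and without replicate 2 (Gzmb 0.097) or 3 (Gzmb 0.101) of cryo-thermal therapy plus anti-PD-1. It was 6 without replicate 1 of cryoablation plus anti-PD-1. Without replicate 1 of cryo-thermal therapy plus anti-PD-1, Gzma was lost (0.071). Without the 3 tumours rich in hair follicle RNA, only replicate 3 of cryoablation plus anti-PD-1 was left in its group. The Gzmb difference was then 2.79, and no call is given because that group has a single tumour. Keratinocyte and hair follicle genes had mean log2 levels of 1.82 to 3.28 after cryoablation plus anti-PD-1 and of 0.70 to 3.68 after cryo-thermal plus anti-PD-1, so the groups overlapped.

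Granule genes were called in this pair of groups too. Nkg7 (2.02), Ctsw (1.52), Cst7 (1.19) and Ctsc (0.91) rose, 4 of 10. Among exocytosis genes Unc13d (0.77) and Rab27a, a small GTPase needed for granule docking (0.53), rose, 2 of 8. The inhibitors Serpinb9b (0.94) and Serpinb9 (0.61), relatives of the human granzyme B inhibitor, rose, 2 of 5. Of the substrates and effectors, Gsdmd, a pore-forming gasdermin, rose by 0.60. Tnfsf10 rose by 0.74. In the transcription factor list Runx3 was called (0.55), 1 of 9. Cytokine and receptor genes rose in 7 of 10 cases, led by Ifng (1.66), Il12rb1 (1.51), Il2rb (1.40) and Il18rap (1.30). T cell, CD8 and NK cell markers moved with them, with 7 of 9 T cell, 2 of 2 CD8 and 4 of 7 NK cell genes higher. Of 5 plasmacytoid dendritic cell genes tested, 0 were called. The T cell list summed to 5.70 to 23.2 FPKM after cryoablation plus anti-PD-1 and to 38.0 to 40.4 FPKM after cryo-thermal plus anti-PD-1, and NK cell sums were 4.32 to 14.5 FPKM and 22.6 to 25.3 FPKM. Mast cell sums overlapped at 8.18 to 21.0 FPKM and 3.19 to 19.7 FPKM, with 0 of 6 genes called. The part of these cells was not tested.

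Radiofrequency ablation against cryoablation gave positive differences for Gzmb, Prf1 and the whole Gzmc to Gzmg series, but 0 of the 9 members were called, beside 0.00794% of all genes, or 1 gene. At an unadjusted p under 0.05 by limma there were 5 members, beside 15.1% of all genes. Gzmg (1.30 ± 0.53 SE, adjusted p = 0.269), Gzmc (1.25 ± 0.34, adjusted p = 0.152), Gzmd (1.09 ± 0.48), Gzmb (1.05 ± 0.47) and Prf1 (0.99 ± 0.38) had the largest values, while Gzma had -0.39. In 7 members, Gzmb to Gzmg and Prf1, the radiofrequency tumours did not overlap with the cryoablation tumours and were higher, beside 10.6% of all genes. The T cell and NK cell lists had 0 genes called here.

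With anti-PD-1 in both groups, 0 of 9 members were called for radiofrequency against cryoablation, beside 0% of all genes, and 7 had an unadjusted p under 0.05, beside 5.85%. Differences were 2.16 for Gzmg, 1.98 for Gzmd, 1.88 for Gzmf, 1.71 for Gzme, 1.59 for Gzmc, 1.28 for Gzmb and 1.23 for Prf1, at adjusted p-values from 0.729 for Gzmc, Gzmd, Gzme, Gzmf and Gzmg to 0.840 for Gzmb. Without replicate 3 of radiofrequency plus anti-PD-1, the highest tumour, they were 1.53 for Gzmg, 1.37 for Gzmd and 0.74 for Gzmb. The 3 tumours of each group did not overlap in 5 members, Gzmc to Gzmg, beside 6.03% of all genes.

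Cryo-thermal therapy against radiofrequency ablation gave 0 calls among the 9 members, beside 0.00794% of all genes, and 0 at an unadjusted p under 0.05, beside 13.6%. The sign differed between members: Gzmb was at 0.53 ± 0.47 (SE), Gzma at 0.48 ± 0.57 and Prf1 at 0.05 ± 0.38, while Gzmg was at -0.82 ± 0.53, Gzmf at -0.73 ± 0.42 and Gzmd at -0.54 ± 0.48. The cryo-thermal tumours did not overlap and were lower for Gzmd, Gzmf and Gzmg, 3 members beside 7.59% of all genes. With anti-PD-1 in both groups there were again 0 members called, beside 1.31% of all genes, and 2 at an unadjusted p under 0.05, beside 17.2%, namely Gzma (1.78 ± 0.57, adjusted p = 0.122) and Gzmb (1.04 ± 0.47, adjusted p = 0.270). Gzma and Gzmk were higher without overlap, 2 members beside 11.8% of all genes. Gzmd (-0.85) and Gzmg (-1.01) had values below 0, which were -0.24 and -0.39 without replicate 3 of radiofrequency plus anti-PD-1. In this pair of groups 2 of 2 CD8 genes rose, Cd8a (1.66) and Cd8b1 (1.40), and 1 of 9 T cell genes, Cd3d (1.20). Of 10 granule genes 2 rose, Ctsw (1.17) and Srgn, which encodes serglycin (0.95). Cytokine and receptor genes rose in 4 of 10 cases, led by Il12rb1 (1.59) and Ifng (1.34). The NK cell list had 0 of 7 genes called. Comparisons of one ablation share tumours, so they are not independent of each other.

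Gzmk, fitted without the filter over 26538 genes, did not pass in any of these comparisons. Its difference was 1.09 (adjusted p = 0.112) for cryo-thermal against radiofrequency with anti-PD-1, 0.85 (0.161) against cryoablation with anti-PD-1 and 0.73 (0.152) against cryoablation without it.

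**Figure D2:**
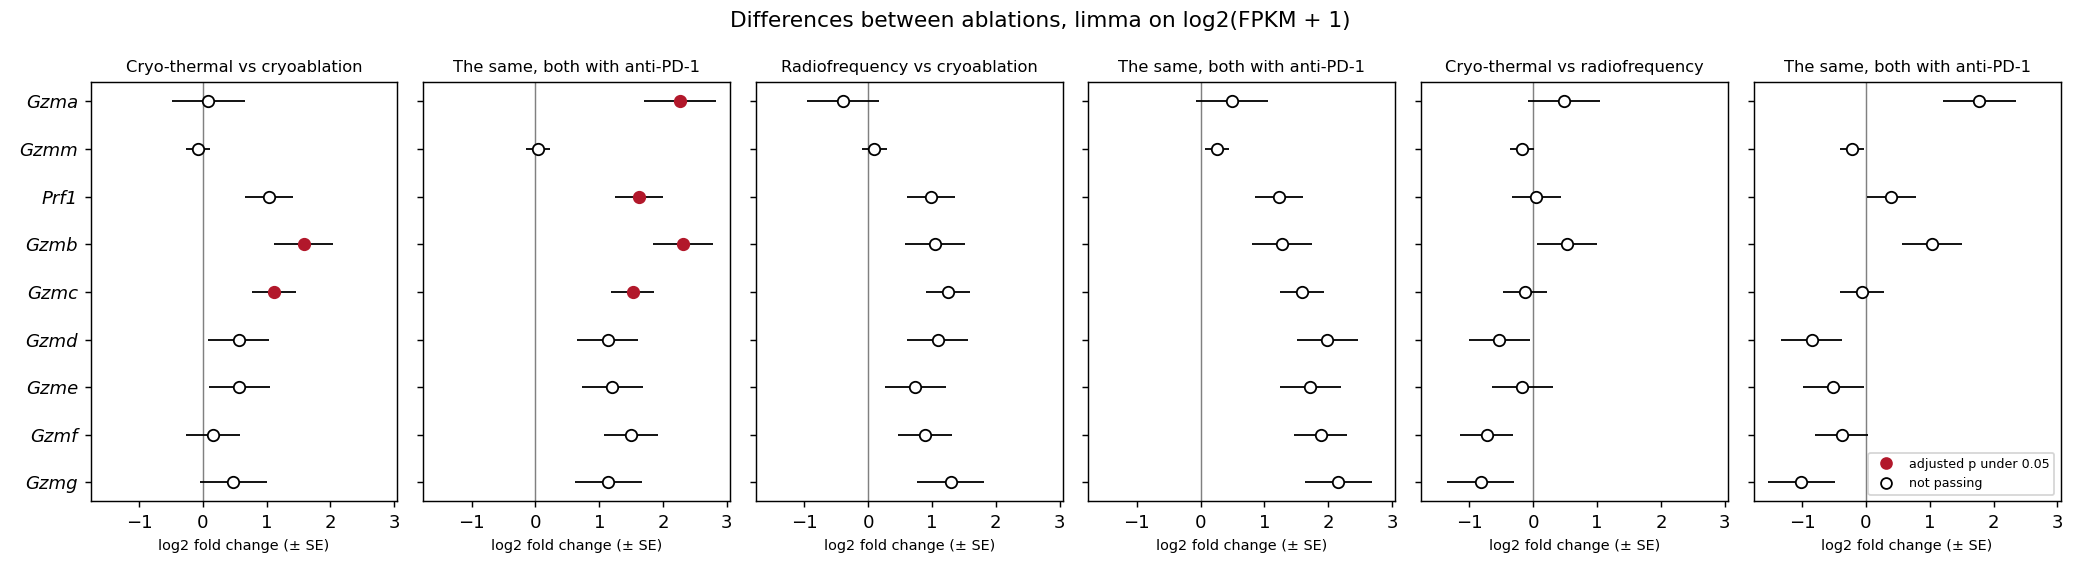
Limma log2 fold changes of log2(FPKM + 1) with SE (x axis) for the 9 tested members (y axis) in 6 comparisons of ablations, with filled points where the adjusted p is under 0.05. Filled points are Gzmb and Gzmc for cryo-thermal against cryoablation, and Gzma, Gzmb, Gzmc and Prf1 with anti-PD-1 in both groups, while Gzmd, Gzmf and Gzmg lie below 0 in both comparisons with radiofrequency ablation.

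Adding anti-PD-1 gave no call in any of the 9 members under any ablation. In cryoablation 0 of 9 passed, beside 4.31% of all genes, and 0 had an unadjusted p under 0.05, beside 24.4%. Gzma had -1.15 ± 0.57 (SE, adjusted p = 0.228), Gzmf -0.61 and Gzmb -0.01. In radiofrequency ablation 0 of 9 passed, beside 0.0477% of all genes, with 0 at an unadjusted p under 0.05, beside 11.6%, and Gzmd had 0.42 and Gzmb 0.21. In cryo-thermal therapy 0 of 9 passed, beside 0.373% of all genes, again with 0 at an unadjusted p under 0.05, beside 13.0%. Here Gzma had 1.02 ± 0.57 (adjusted p = 0.460), Gzmf 0.73 (0.478), Gzmb 0.72 (0.524) and Prf1 0.49 (0.613). The cryo-thermal tumours with the antibody did not overlap with those without it for Gzmb, Gzmc, Gzmf and Prf1, 4 members beside 10.6% of all genes. For the mean effect over the 3 ablations 0 members were called, beside 10.0% of all genes, with 0 at an unadjusted p under 0.05, beside 28.5%, and Gzmb had 0.31 ± 0.27. In the mean effect 2 of 10 tested genes of granule processing rose, Ctsc (0.49) and Calr (0.22), and 1 of 5 inhibitors fell, Serpinb1a (-0.33). Of the substrates, Set, a nuclear protein cleaved by granzyme A, rose by 0.20. Of the cytokines and receptors 3 of 10 rose, Ifng (0.60), Il2rg (0.38) and Il2ra (0.33), and of the T cell genes 2 of 9, Cd2 (0.77) and Cd6 (0.40).

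The difference of the antibody's effect between ablations was tested directly. For cryo-thermal therapy minus cryoablation it was 2.18 ± 0.80 (SE) in Gzma (adjusted p = 0.244) and 1.34 ± 0.59 in Gzmf (adjusted p = 0.342). Of 9 members 0 passed, beside 0.167% of all genes, and these 2 had an unadjusted p under 0.05, beside 13.4%. For cryo-thermal therapy minus radiofrequency it was 1.30 ± 0.80 in Gzma (adjusted p = 0.799), with 0 of 9 called, beside 0% of all genes, and 0 at an unadjusted p under 0.05, beside 7.23%.

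The make-up of the signal was described as shares of the FPKM summed over the 10 genes, with no test. This sum ran from 28.1 FPKM in replicate 2 of cryoablation plus anti-PD-1 to 486 FPKM in replicate 3 of radiofrequency plus anti-PD-1. Gzmc to Gzmg made up 72.4% to 92.3% of it. By group mean their share was highest in the radiofrequency groups, at 83.8% to 92.3% without and 90.4% to 91.4% with the antibody. It was lowest in the cryo-thermal groups, at 72.4% to 84.4% and 72.6% to 78.0%. The cryoablation groups lay between by mean, at 80.9% to 88.3% and 82.7% to 90.4%. Both of their ranges overlapped those of radiofrequency ablation and of cryo-thermal therapy without the antibody. Gzmb made up 9.30% to 14.1% after cryo-thermal therapy and 11.3% to 15.8% with anti-PD-1 added. In the 12 tumours of the other groups its share was 3.65% to 9.44%, so 1 radiofrequency tumour reached into the cryo-thermal range.

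The ratio of Gzmb to Prf1, both per length, was highest in the cryo-thermal groups. It was 3.13 to 3.18 after cryo-thermal plus anti-PD-1, 2.67 to 2.85 after cryo-thermal therapy, and 1.58 to 2.61 in the other 12 tumours. Replicate 3 of radiofrequency plus anti-PD-1, the tumour with the highest levels, had a ratio of 1.99. Gzmb over Gzmd was 0.695 to 1.21 after cryo-thermal plus anti-PD-1 and 0.194 to 0.555 in the 12 tumours without cryo-thermal therapy. After cryo-thermal therapy alone it was 0.916, 0.489 and 0.509, so 2 of these 3 tumours lay within the range of the 12.

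For a view relative to T cell RNA, the members were divided by CD3. The summed FPKM of Cd3d, Cd3e and Cd3g, chains of the T cell receptor complex, was 0.937 to 1.62 after cryoablation and 17.3 to 19.0 after cryo-thermal plus anti-PD-1. Without the antibody, Gzmb per CD3 was 1.87 to 4.00 after cryoablation, 1.74 to 3.93 after radiofrequency ablation and 1.00 to 2.13 after cryo-thermal therapy, so the groups overlapped. With it, Gzmb per CD3 was 0.627 to 1.03 after cryoablation, 1.55 to 3.21 after radiofrequency ablation and 1.22 to 1.36 after cryo-thermal therapy. For Gzmb, cryo-thermal plus anti-PD-1 was thus above cryoablation plus anti-PD-1 and below radiofrequency plus anti-PD-1 without overlap. Prf1 per CD3 differed from this. Without the antibody it was 0.356 to 0.773 after cryo-thermal therapy, below cryoablation (0.894 to 1.90) and radiofrequency ablation (0.781 to 2.32) without overlap. With the antibody it was 0.383 to 0.433 after cryo-thermal therapy, within the range of cryoablation (0.249 to 0.497) and below radiofrequency ablation (0.737 to 1.62). Gzma per CD3 was highest in a cryoablation tumour, replicate 1, at 9.52. NK cells also make both granzymes, so these ratios are not levels per T cell.

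**Figure D3:**
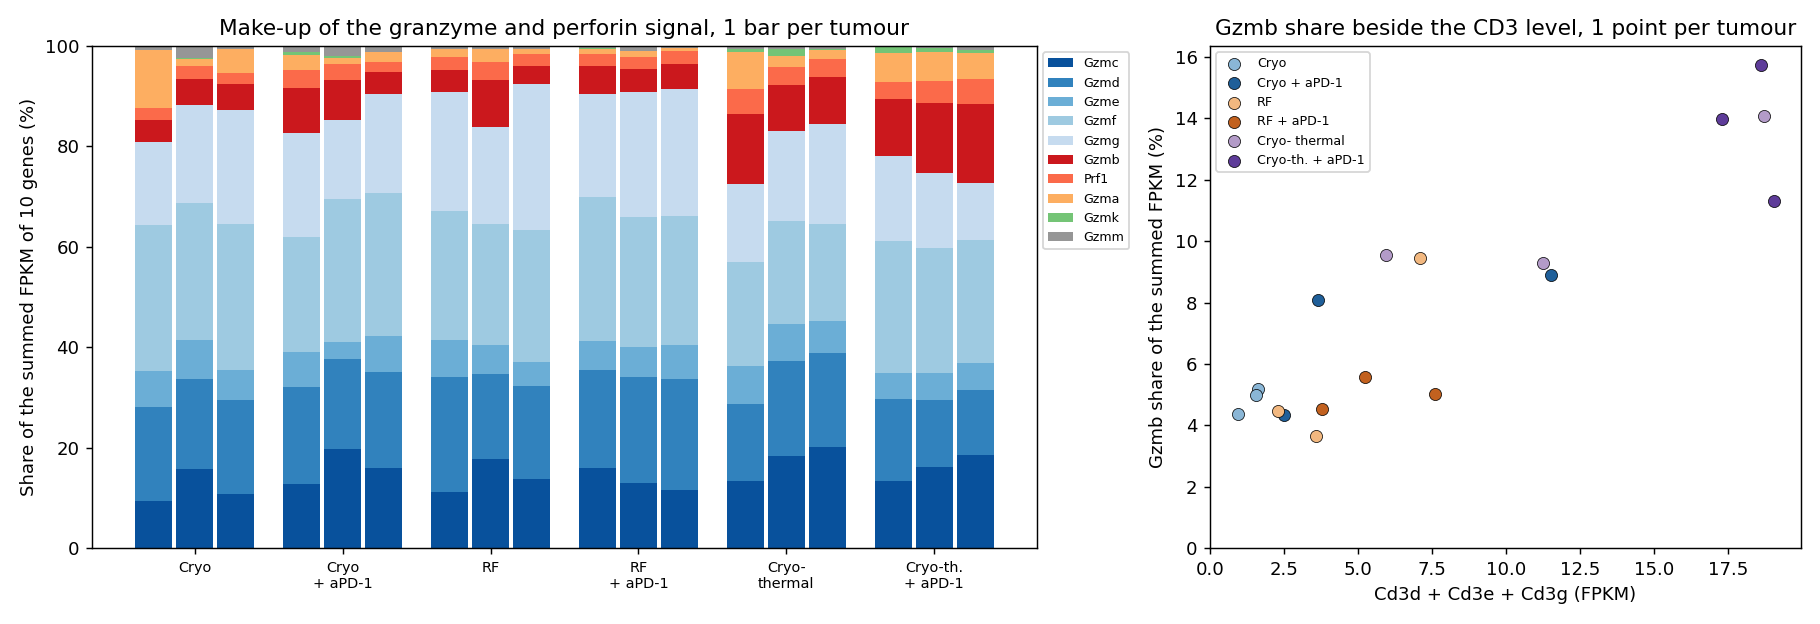
Left, share of each gene in the summed FPKM of the 10 genes (y axis, %), 1 bar per tumour. Right, Gzmb share (y axis, %) against the summed FPKM of Cd3d, Cd3e and Cd3g (x axis), 1 point per tumour: the 6 cryo-thermal tumours are at 9.30% or more, and the 3 cryoablation tumours have a CD3 sum of at most 1.62 FPKM.

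The members did not vary as one block across the 18 tumours. Pearson r of log2(FPKM + 1) was 0.93 to 0.98 for the 6 pairs among Gzmd, Gzme, Gzmf and Gzmg, and 0.89 to 0.97 without replicate 3 of radiofrequency plus anti-PD-1. These are also the genes with shared sequence, and the part of shared reads in this likeness was not tested. Gzmb and Prf1, which share no window of 50 bases, had r = 0.97 both across all tumours and in deviations from the group means. Gzmc had 0.92 with Prf1, 0.86 with Gzmb and 0.84 to 0.88 with Gzmd to Gzmg. With Gzmd to Gzmg, Prf1 had 0.76 to 0.85 and Gzmb had 0.59 to 0.72. In deviations from the group means, Prf1 had 0.80 to 0.88 and Gzmb 0.68 to 0.78 with them. Gzma had 0.26 to 0.45 and Gzmk -0.02 to 0.28 with Gzmc to Gzmg. Gzmm had -0.24 to 0.44 with the other 9. Without replicate 3 of radiofrequency plus anti-PD-1 these were 0.31 to 0.56 for Gzma, 0.10 to 0.42 for Gzmk and -0.25 to 0.24 for Gzmm. All points share the groups and their libraries, so these values are a description.

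**Figure D4:**
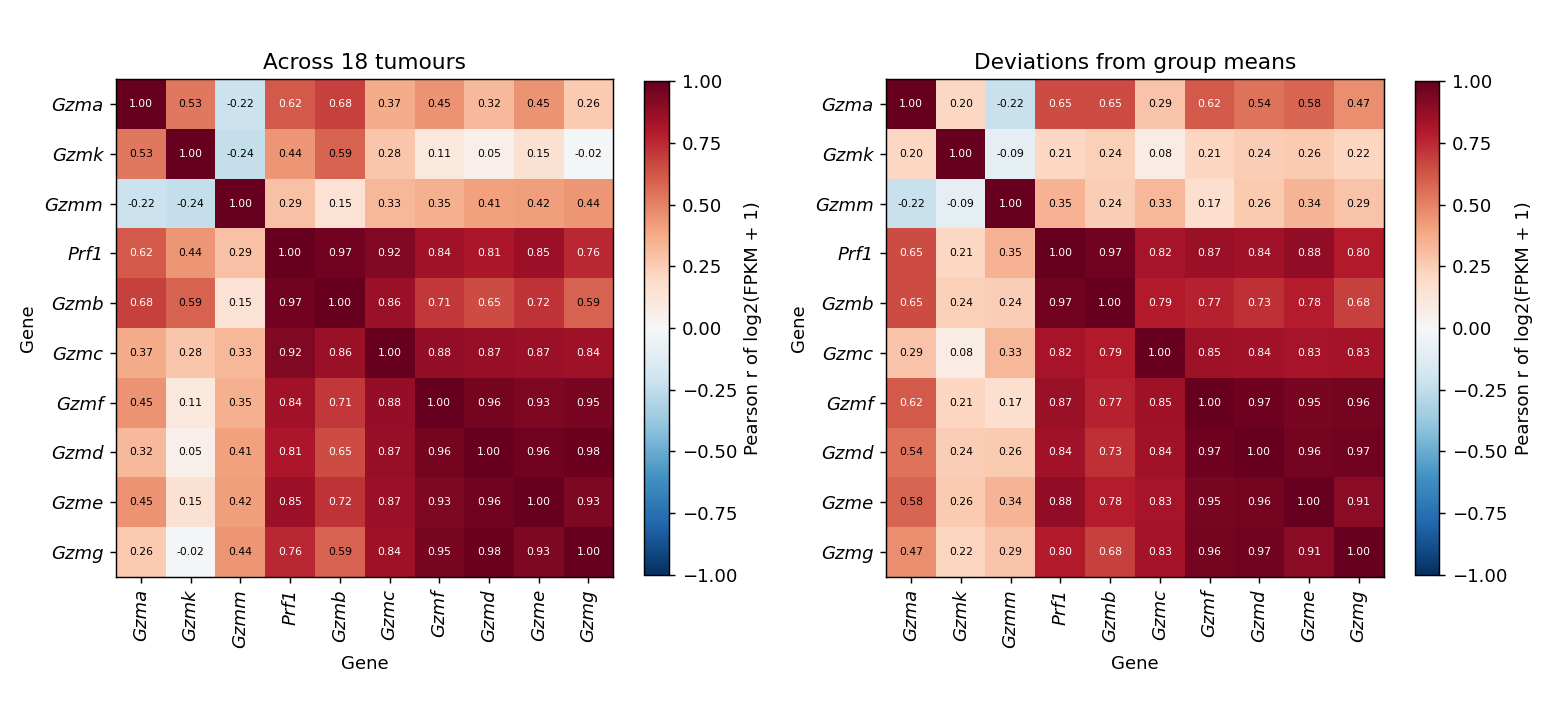
Pearson r of log2(FPKM + 1) between the 10 genes over 18 tumours (left) and over the tumours' deviations from their group means (right), with the colour scale from -1 to 1. Gzmb and Prf1 have 0.97 in both panels, Gzmd to Gzmg have 0.93 to 0.98 on the left, and Gzmk and Gzmm have low values with most genes.

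Among 11760 other genes, those with the pattern most like Gzmb over the 18 tumours were Ifi47, an interferon-induced GTPase (r = 0.95), Parp10 (0.95), Klra7, an NK cell receptor (0.94), Il2rb (0.94) and Gsdmd (0.94). For Prf1 they were Klra7 (0.91), Fas, a death receptor (0.91), Parp10 (0.89), Trim21 (0.88) and Lime1 (0.88). Gzmd was added after its values were seen, and was most like Enpp2, which encodes autotaxin (0.90), and Klrg1, a receptor of effector lymphocytes (0.81). Next were Commd5 (0.81), Ctsg, which lies beyond Gzme in the same locus (0.80), and Ptrh2 (0.75). The Gzmb and Prf1 lists shared 2 of 5 genes each, Klra7 and Parp10, and the Gzmd list shared 0 of 5 with either. The points are the same tumours and libraries for every gene, and no p is given.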

How the data were processed

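The values in the deposited table are FPKM computed by the authors, 1 column per tumour, with 0 columns of other samples. The submitters' processing notes name HTSeq 0.11.2. The sources used here do not give the aligner, genome build, annotation, strand, read length or filters. Per the labels' protocols, RNA came from TRIzol and silica columns and libraries from a VAHTS Universal V6 kit. Tumours were grouped by the treatment in the labels, 3 per group.

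The analysis used log2(FPKM + 1), which understates fold changes of low genes. Genes with a mean of at least 0.5 FPKM over the 18 tumours were tested, 12587 of 26538, with 1 linear model of 6 group means (limma 3.58.1 in R 4.3.3, variances following the mean, 2-sided, Benjamini-Hochberg over all genes tested). A count test foreseen for counts was dropped, since the values are FPKM. The script was tested on simulated data. Of 150 entries in 18 gene lists, 147 were in the table. The rule for naming took all 10 members, up to 4 passing genes per list and comparison with the largest change, and the 5 genes with the highest r to Gzmb and Prf1. The genes most like Gzmd, the neighbour Gzmn and, as the last of 5 passing genes, Calr were named outside this rule, after their values were seen. The members and lists were chosen with earlier results of these data known. Alternatives were another scaling, pseudocount and filter, a replicate block, fewer groups, and leaving out tumours. Promoters come from RefSeq (GRCm38.p6), and transcript identity from GENCODE vM21 sequences aligned in Biopython 1.88. Python 3.11.15, pandas 2.3.3, numpy 2.4.6 and matplotlib 3.10.9 were used. The result of 1 gene in the list of substrates and death effectors is not reported here.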

Additional observations from a re-analysis of the deposited data

How the results depend on the processing

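Without the filter on low values, 0 members passed for cryo-thermal therapy against cryoablation, in place of 2, 0 passed with anti-PD-1 in both groups, in place of 4, and 2 passed the test of any difference, in place of 4. More genes are then adjusted for, 26538. Without the 3 tumours rich in hair follicle RNA, cryoablation plus anti-PD-1 kept only replicate 3, so no count of calls is given for that setting. With only the compared groups in the fit, 0 passed for cryo-thermal plus anti-PD-1 against cryoablation plus anti-PD-1, 3 passed for cryo-thermal therapy against cryoablation, Prf1 among them (adjusted p = 0.033), and 1 passed for cryo-thermal against radiofrequency, both with anti-PD-1 (Gzma, adjusted p = 0.046); the cause was not tested. Leaving out 1 tumour at a time, where a group of 2 shares the spread of the rest, gave 0 to 2 calls for cryo-thermal therapy against cryoablation, 0 to 6 with anti-PD-1, and 2 to 7 for any difference. It turned the sign of some differences that were not called: Gzma ranged from -0.64 to 0.59 and Gzmf from -0.10 to 0.46 for cryo-thermal against cryoablation, Gzma from -1.12 to 0.11 for radiofrequency against cryoablation, Gzmb from -0.55 to 0.29 for anti-PD-1 in cryoablation, and Gzmb from -0.33 to 0.62 and Gzmd from -0.19 to 0.78 for anti-PD-1 in radiofrequency.

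The replicate numbers share a number only: deviations from group means of 45 pairs with the same number had r from -0.47 to 0.59, and 13 were over 0.1. For 90 pairs with other numbers r was -0.58 to 0.50, and 29 were over 0.1. With the replicate block, 7 members passed the test of any difference, and 5 passed for cryo-thermal plus anti-PD-1 against cryoablation plus anti-PD-1, Gzmf among them (adjusted p = 0.042; 0.048 when scaled to TPM). The table gives no fragment counts, so low values such as those of Gzmk and Gzmm have no counting interval.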

Other observations

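Gzmn, the member of the chromosome 14 series that was not followed above, was listed at 0 in 14 of the 18 tumours, and its highest value was 0.171 FPKM in replicate 3 of radiofrequency ablation. Of the chymase and cathepsin genes beside the granzyme series, 3 passed the filter and 0 were called in any comparison.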
